A study of Danio rerio with 4 samples.

Results

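The clustered protocadherin genes were followed in RNA of whole zebrafish embryos at 2 dpf. Protocadherins are adhesion proteins of the cadherin superfamily. In the clustered family, many similar variable exons stand in a row, each behind its own promoter, and each is spliced to constant exons that the whole row shares. In mice, single neurons use different sets of these exons, and the proteins bind to copies of themselves on other membranes, which is known for its part in self-avoidance of neurites and in the survival of interneurons. Zebrafish carry a pair of such clusters, pcdh1 and pcdh2, and each has an alpha row and a gamma row.

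The genes were found by their symbols in the deposited table, and the members were selected on their reads: a gene was kept if at least 1 read fell on it in any of the 4 libraries. Of the 31388 genes of the table, 33 carried a symbol of this family, and 21 of these had a read. *pcdh2ab3* is the symbol of a pair of entries, each counted here as a gene, so the symbols numbered 32. The pcdh1 cluster gave 17 of 20 and the pcdh2 cluster 4 of 13. The least read members, *pcdh1g3* and *pcdh1g29*, had 14 reads each over all libraries, and the 12 genes outside the rule had 0. Since reads chose the members, the presence of reads is a description here and not a result.

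MZ*tulp3* embryos, maternal-zygotic knockouts of *tulp3* from a CRISPR/Cas9-induced line (allele uf3), were compared with control embryos whose genotype the labels give as WT. The paper gives the knockout line as carrying the *li1Tg* transgene in AB/TL fish. It does not state whether the sequenced control embryos carried that transgene. Only MZ*tulp3* embryos with severe ventral body curvature had been taken, so genotype and this selection cannot be told apart. Each group had 2 libraries of poly(A)-enriched RNA, labelled biological replicates 1 and 2, and the sources used here do not say how many embryos went into each. Whether the replicates came from separate clutches is not given either, so p-values measure the spread between these libraries, which may be technical. Values are normalized counts, that is, reads divided by a size factor for each library. Between 22589725 and 29735214 reads fell on genes per library, but the mitochondrial genes took 52.6% and 71.1% of them in MZ*tulp3* libraries and 57.9% and 41.0% in control libraries. Reads outside the mitochondrial genome therefore numbered 10712496 and 8607137 in MZ*tulp3* replicates 1 and 2, against 9972218 and 14520032 in control replicates 1 and 2. With 0 reads, a gene may still be present at up to 3 reads, which is 1.98 to 3.54 normalized counts by library. The targeted gene, *tulp3*, had 0 reads in both MZ*tulp3* libraries, against 0 and 36 reads in control replicates 1 and 2, so it does not check the labels.

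Reads in constant exons cannot be assigned to 1 gene with certainty. The genes chosen by symbol, and no others, were looked up in RefSeq's annotation of GRCz12tu, another build than the authors' own. Of those matched, all 3 pcdh1 alpha genes share 1 gene boundary, as do 14 of the 15 pcdh1 gamma genes and all 8 pcdh2 alpha genes. The authors' counting could thus divide shared reads among neighbours. The level of a single gene is therefore less certain than the sum over the members of its row. Division among those members leaves the sum as it is. Reads given to genes of the row outside the choice by symbol are not in it. No lengths enter the normalized counts. Shares of genes in the reads of a library thus describe reads only and do not compare the levels of different genes.

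Across libraries, the members were read in patches. MZ*tulp3* replicates 1 and 2 held reads of 11 and 5 of the 21 members, against 13 and 9 members in control replicates 1 and 2. Only *pcdh1a4* and *pcdh1a6*, both alpha genes of the pcdh1 cluster, were read in all 4 libraries. Another 4 members were read in 3 libraries, 3 in 2 libraries and 12 in a single library. The library with the fewest reads outside the mitochondrial genome, MZ*tulp3* replicate 2, was also the one with the fewest members, and it had reads on the fewest genes of all, 13277 against 14649 to 15698 in the other libraries. The part of depth in these counts was not tested.

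**Figure D1:**
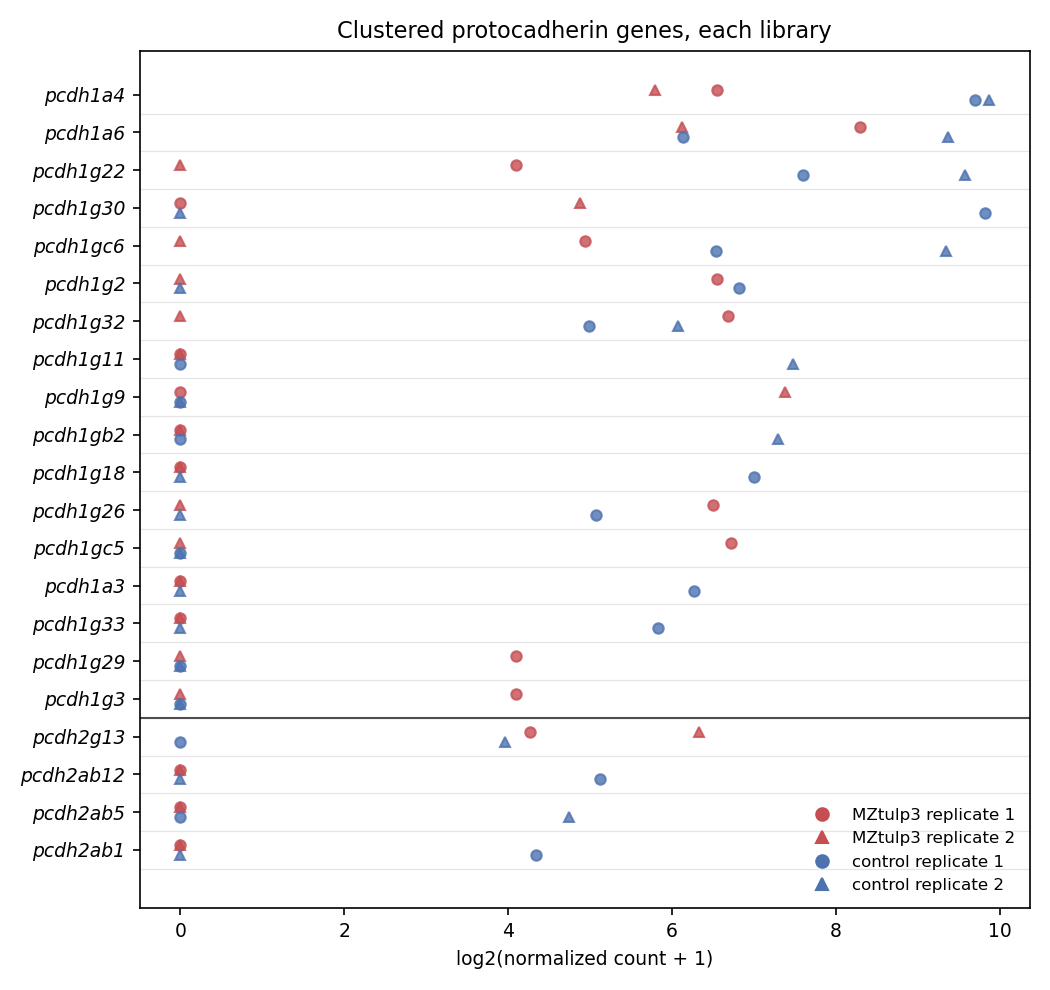
Normalized counts of the 21 members, as log2(normalized count + 1), in MZtulp3 libraries (red) and control libraries (blue), with circles for replicate 1 and triangles for replicate 2. The horizontal line separates the pcdh1 cluster (above) from the pcdh2 cluster (below), points at 0 had no reads, and 12 of the 21 genes have a single point away from 0.

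Members with many reads, too, were often read in 1 library and not in the other 3. Of the 16 members with at least 50 reads in some library, 7 were read in that library only, 43.8%, whereas 4.08% of the 14229 genes of the table with as many reads were. At 100 reads or more, the counts were 4 of 11 members and 93 of 11133 genes (0.835%). The 4 were all gamma genes of the pcdh1 cluster. *pcdh1g11* and *pcdh1gb2* had 267 and 235 reads in control replicate 2, *pcdh1g18* had 132 reads in control replicate 1, and *pcdh1g9* had 140 reads in MZ*tulp3* replicate 2. Each was at 0 reads in its other 3 libraries, its replicate included. The shares are descriptions of these libraries, and the part of read assignment between neighbouring genes was not tested.

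Of the 12 members read in 1 library, 4 were read in an MZ*tulp3* library and 8 in a control library. These counts stand without the same split over all genes and describe these libraries only. MZ*tulp3* replicate 1 was the source of *pcdh1gc5* (91 reads), *pcdh1g3* and *pcdh1g29* (14 reads each). In control replicate 1, these were *pcdh1a3* (79 reads), *pcdh1g33* (58 reads), *pcdh1g18*, *pcdh2ab12* (35 reads) and *pcdh2ab1* (20 reads). Besides *pcdh1g11* and *pcdh1gb2*, control replicate 2 was the source of *pcdh2ab5* (39 reads). None of these 12 passed the filter on low values, and no fold change is given for them.

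Summed over the cluster, pcdh1 was lower in each MZ*tulp3* library than in either control library. The 17 genes together had 871 and 316 normalized counts in MZ*tulp3* replicates 1 and 2, against 2517 and 3397 in control replicates 1 and 2. The means were 594 ± 392 in MZ*tulp3* embryos and 2957 ± 622 in control embryos (SD, n = 2 each), a 4.98-fold difference, or a log2 ratio of -2.32. Leaving out MZ*tulp3* replicate 1 gave a log2 ratio of -3.22, and leaving out MZ*tulp3* replicate 2 gave -1.76. Since the members were picked with earlier results in view, this sum was not tested.

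Both rows of the cluster were low in MZ*tulp3* embryos. The 3 alpha genes summed to 405 and 123 normalized counts in MZ*tulp3* libraries, against 972 and 1591 in control libraries, with a log2 ratio of -2.28. For the 14 gamma genes the sums were 466 and 194 in MZ*tulp3* libraries and 1545 and 1806 in control libraries, with a log2 ratio of -2.34. In both rows the groups did not overlap. The split between the rows was alike in all libraries, with alpha genes taking 46.5% and 38.8% of pcdh1 reads in MZ*tulp3* libraries, against 38.6% and 46.8% in control libraries. Leaving out *pcdh1a4*, the other 16 pcdh1 genes still summed to 779 and 262 in MZ*tulp3* libraries, against 1690 and 2462 in control libraries. Within the rows this was not so: the alpha genes other than *pcdh1a4* summed to 313 and 68.5 in MZ*tulp3* libraries, against 145 and 656 in control libraries, and these values overlapped. The gamma genes other than *pcdh1g22* and *pcdh1gc6* summed to 420 and 194 in MZ*tulp3* libraries, against 1261 and 397 in control libraries, which overlapped too.

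**Figure D2:**
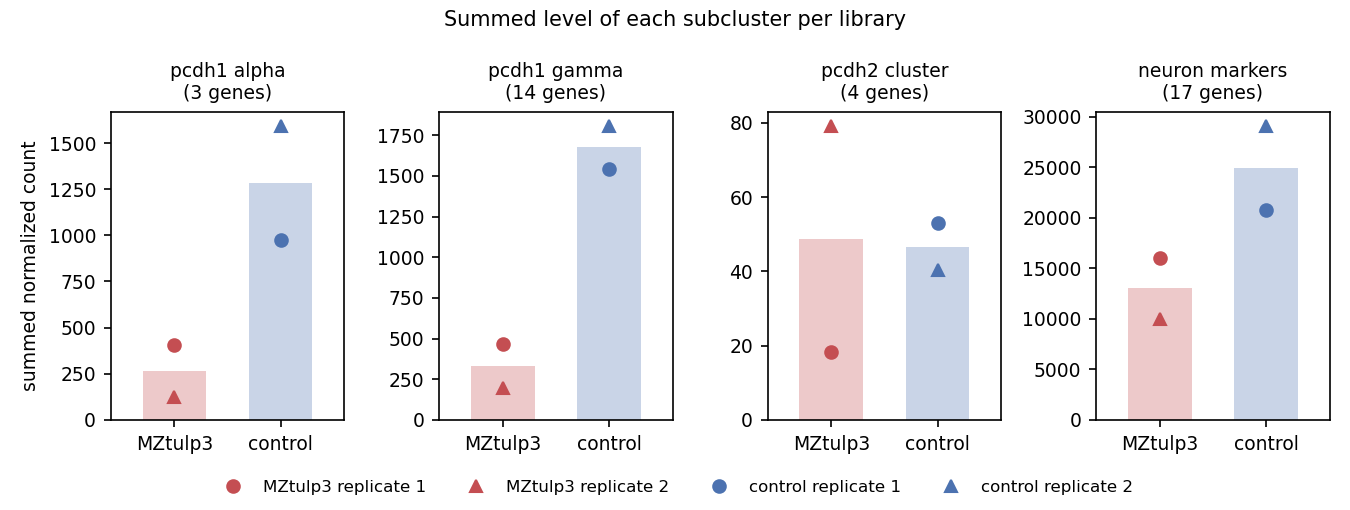
Summed normalized counts per library of the pcdh1 alpha genes, the pcdh1 gamma genes, the 4 pcdh2 members and the neuron markers (bar: mean of 2 libraries; circles: replicate 1; triangles: replicate 2), each panel on its own axis from 0. The MZtulp3 points lie below the control points for both pcdh1 rows (at most 466 against at least 972) and for the neuron markers, and on either side of them for the pcdh2 members.

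The pcdh2 cluster had few reads in any library. Its 4 members summed to 18.3 and 79.1 normalized counts in MZ*tulp3* replicates 1 and 2, against 52.9 and 40.3 in control replicates 1 and 2. The MZ*tulp3* libraries stood on either side of the control libraries, and the log2 ratio of the means was 0.06, which became -0.12 with control replicate 2 left out, -1.35 with MZ*tulp3* replicate 2 left out and 0.76 with MZ*tulp3* replicate 1 left out. This value depended on the choice of genes by symbol. A pair of other pcdh2 genes fell outside that choice, *pcdh2ac*, whose symbol has no number, and ENSDARG00000089593, which has no symbol in the file and is *pcdh2ab11* in the table of gene names. *pcdh2ac* had 72.1 and 0 normalized counts in MZ*tulp3* libraries, against 13.5 and 0 in control libraries, and *pcdh2ab11* had 18 reads in MZ*tulp3* replicate 1 and 0 elsewhere. With both added, the 6 genes summed to 111 and 79.1 normalized counts in MZ*tulp3* libraries, against 66.4 and 40.3 in control libraries. Both MZ*tulp3* libraries were then above both control libraries, at a log2 ratio of 0.83, which lay between 0.52 and 1.24 with 1 library left out. Among the 4 members, reads in MZ*tulp3* libraries (16 and 67) lay on the gamma gene *pcdh2g13*, which the table of gene names lists as *pcdh2g28*, and in control libraries alpha genes took 55 of 55 and 39 of 61. The other 9 alpha genes of pcdh2, among them *pcdh2aa1* and *pcdh2aa15*, had 0 reads in all 4 libraries, so they were not detectable at this depth. In the pcdh1 cluster, ENSDARG00000098963, without a symbol in the file and *pcdh1g13* in the table of gene names, had 5 reads in control replicate 2 and 0 elsewhere, and is not counted either. The pcdh1 and pcdh2 clusters thus stood at log2 ratios of -2.32 and 0.06 (0.83 with the other 2 genes), and the difference between them was not tested, since genes of 1 cluster are not replicates and the pcdh2 value rests on at most 67 reads in a library (97 with those genes).

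Single members were tested by limma's moderated test across the 14674 genes that reached 10 normalized counts in at least 2 libraries. The scale was log2(normalized count + 2). The added 2 shrinks differences of genes with few reads, whereas a single library at 0 can enlarge them, since logs are averaged. *pcdh1g32*, at 0 in MZ*tulp3* replicate 2, had means of 51.0 in MZ*tulp3* embryos and 48.4 in control embryos. Its log2 fold change was nonetheless -1.71 by limma, against 0.07 by DESeq2. Of the 21 members 9 passed the filter of 10 normalized counts, 8 of pcdh1 and 1 of pcdh2. At an adjusted p under 0.05 (Benjamini-Hochberg over all genes tested), limma called 0 of the 9, as it called 0% of all genes tested. At an unadjusted p under 0.05, 3 of the 9 were lower in MZ*tulp3* embryos, while 7.94% of all genes tested were lower at that p. DESeq2 on the recovered whole reads called the same 3 genes, *pcdh1a4*, *pcdh1g22* and *pcdh1gc6*, all lower, out of 15 members to which it gave an adjusted p. Over all genes it called 1.41% as lower. edgeR called 0 members and 0 genes, with 3 members lower at an unadjusted p under 0.05, as were 5.98% of all genes tested. For these 3 genes both MZ*tulp3* libraries lay below both control libraries, an order that 23.3% of all genes tested showed.

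*pcdh1a4* (ENSDARG00000097170), an alpha protocadherin, gave the most even difference. Its normalized counts were 92.7 and 54.3 in MZ*tulp3* replicates 1 and 2, against 827 and 935 in control replicates 1 and 2. Both MZ*tulp3* libraries were far below both control libraries, and the replicates of each group were close to each other. The log2 fold change was -3.59 (standard error 0.55), which is 12.1-fold lower in MZ*tulp3* embryos. By limma, the unadjusted p was 0.000323 and the adjusted p 0.379. Across the alternatives, that is, other tests, filters, pseudocounts and scalings with all 4 libraries kept, the adjusted p ran from 2.35e-05 by DESeq2 to 0.458 by edgeR, and it was 0.00747 by limma where 10 normalized counts were required in every library. With 1 library left out at a time, the log2 fold change lay between -3.97 and -3.22.

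Its neighbour *pcdh1a6* (ENSDARG00000104598), from the same alpha row, did not show this order. It had 313 and 68.5 normalized counts in MZ*tulp3* libraries, against 69.3 and 656 in control libraries, and the groups overlapped on both sides. Its log2 fold change was -0.54 with a standard error of 1.20. The adjusted p was 0.903 in limma's test, and the alternatives gave 0.836 to 0.937. The log2 fold change became 1.06 with control replicate 2 left out and 0.54 with MZ*tulp3* replicate 2 left out, while it was -2.14 and -1.62 with either of the other libraries left out.

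Within the alpha row, the makeup of the reads differed between the groups. The shares of *pcdh1a4* come from the same reads as its fold change and are not a separate observation. *pcdh1a4* took 22.9% (95% Wilson interval 18.8% to 27.5%) and 44.2% (35.1% to 53.8%) of the alpha reads in MZ*tulp3* replicates 1 and 2. In control replicates 1 and 2 it took 85.0% (82.7% to 87.1%) and 58.8% (56.8% to 60.7%). These shares do not depend on the scaling between libraries. The intervals cover counting error only, since several reads can come from 1 molecule. How reads of shared exons were divided among the alpha genes also enters these shares, and its part was not tested. The shares in MZ*tulp3* libraries were below both control shares, but the control replicates also differed from each other by more than counting error. *pcdh1a6* took most of the rest, and *pcdh1a3* had reads in control replicate 1 alone.

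**Figure D3:**
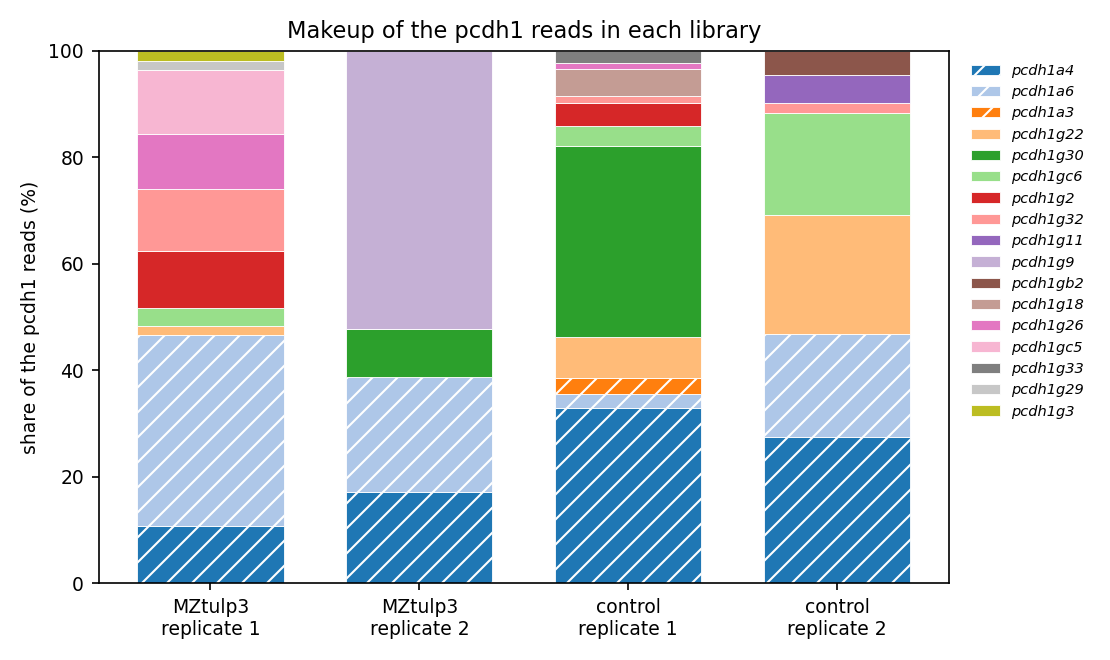
Share of the pcdh1 reads of each library (761 and 268 reads in MZtulp3 replicates 1 and 2, 2615 and 5145 in control replicates 1 and 2) that fell on each gene, with alpha genes hatched. The alpha genes take 38.6% to 46.8% of every bar, while the gamma genes that make up the rest differ from bar to bar, such as pcdh1g9 in MZtulp3 replicate 2 and pcdh1g30 in control replicate 1.

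Among the gamma genes, *pcdh1g22* (ENSDARG00000103013) had the largest fold change of all members tested. Its normalized counts were 16.0 and 0 in MZ*tulp3* replicates 1 and 2, against 193 and 760 in control replicates 1 and 2. Both MZ*tulp3* libraries were lower, and the control replicates were themselves far apart. The log2 fold change was -6.00 with a standard error of 1.66, and limma gave an unadjusted p of 0.00859 and an adjusted p of 0.379. Across the alternatives the adjusted p ran from 0.000513 by DESeq2 to 0.483 by edgeR. The log2 fold change lay between -7.59 and -4.42 with 1 library left out, and was -7.06 and -4.61 with 0.5 and 10 added in place of 2.

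*pcdh1gc6* (ENSDARG00000103950) followed the same order of libraries. It had 29.8 and 0 normalized counts in MZ*tulp3* replicates 1 and 2, against 91.5 and 648 in control replicates 1 and 2. In both genes, control replicate 2 was the highest library and MZ*tulp3* replicate 2 had no reads. The log2 fold change of *pcdh1gc6* was -4.95 with a standard error of 1.89. Limma's unadjusted p was 0.0346 and its adjusted p 0.379, and the alternatives gave an adjusted p between 0.0404 by DESeq2 and 0.553 without a filter. With MZ*tulp3* replicate 2 left out, the log2 fold change was -2.96, with control replicate 2 left out -3.55, and at the other end -6.95, while 0.5 and 10 added in place of 2 gave -5.97 and -3.70.

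The other gamma genes tested differed more between replicates than between groups. *pcdh1g30* (ENSDARG00000101865) had 0 and 28.3 normalized counts in MZ*tulp3* libraries, against 903 and 0 in control libraries, where 938 reads fell on it in replicate 1 and none in replicate 2. Its log2 fold change was -2.45 (standard error 3.05), and it ran from -6.86 with control replicate 2 left out to 1.96 with control replicate 1 left out. *pcdh1g32* had 102 and 0 normalized counts in MZ*tulp3* libraries, against 30.8 and 66.0 in control libraries. *pcdh1g2* had 92.7 and 0 in MZ*tulp3* libraries, against 112 and 0 in control libraries, and *pcdh1g26* had 89.3 and 0 in MZ*tulp3* libraries, against 32.7 and 0 in control libraries. In these last 3 genes replicate 1 of MZ*tulp3* embryos was the library with reads and replicate 2 had none. Their log2 fold changes were -1.71, -0.13 and 0.70 with standard errors of 2.21, 2.69 and 2.41, and each changed sign when some single library was left out (to 1.14 without MZ*tulp3* replicate 2 for *pcdh1g32*, to 2.78 without control replicate 1 for *pcdh1g2*, to -2.06 without MZ*tulp3* replicate 1 for *pcdh1g26*). The 4 genes had adjusted p-values of 0.783 to 0.994 by limma.

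Replicates of a group shared few gamma genes. MZ*tulp3* replicates 1 and 2 held 8 and 2 gamma genes of pcdh1, and 0 of them were the same. Control replicates 1 and 2 held 8 and 5, with *pcdh1g22*, *pcdh1gc6* and *pcdh1g32* in both. These counts stand without the same counts over all genes and describe these libraries only. MZ*tulp3* replicate 2 had 164 gamma reads in all. The gene with the most gamma reads was another one in each library: *pcdh1gc5* with 22.4% (95% Wilson interval 18.6% to 26.7%) in MZ*tulp3* replicate 1 and *pcdh1g9* with 85.4% (79.1% to 90.0%) in MZ*tulp3* replicate 2, against *pcdh1g30* with 58.4% (56.0% to 60.8%) in control replicate 1 and *pcdh1g22* with 42.1% (40.2% to 43.9%) in control replicate 2. By contrast, the alpha genes *pcdh1a4* and *pcdh1a6* were read in both replicates of both groups. Of the 15 gamma genes chosen by symbol that RefSeq places, 12 were read, from place 2 to place 15 in the order of these 15. With 12 of 15 read, a wide spread was fixed in advance, so it says nothing about position along the row. For the 9 members tested, the median coefficient of variation between replicates was 141% in MZ*tulp3* embryos and 114% in control embryos. Over the 10209 genes of the table within the same range of mean normalized counts it was 54.0% in MZ*tulp3* embryos and 42.2% in control embryos. Between 2 replicates this measure cannot exceed 141%, the value whenever 1 of them is at 0, as for 6 of the 9 members in MZ*tulp3* embryos and 4 of the 9 in control embryos. The MZ*tulp3* median is thus at its ceiling and says only that most members lacked reads in 1 replicate. For the sum of the pcdh1 cluster it came to 66.1% in MZ*tulp3* embryos and 21.0% in control embryos.

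In the pcdh2 cluster, *pcdh2g13* (ENSDARG00000098788) was the 1 gene tested. It had 18.3 and 79.1 normalized counts in MZ*tulp3* libraries, against 0 and 14.5 in control libraries. Both MZ*tulp3* libraries lay above both control libraries, an order found in 20% of all genes tested, although 18.3 and 14.5 stand for 16 and 22 reads. Its log2 fold change was 2.82 with a standard error of 1.89, and limma's adjusted p was 0.575, with 0.566 to 0.908 across the alternatives. The value was 1.30 with control replicate 1 left out, 1.82 with MZ*tulp3* replicate 2 left out and 4.34 with control replicate 2 left out.

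**Figure D4:**
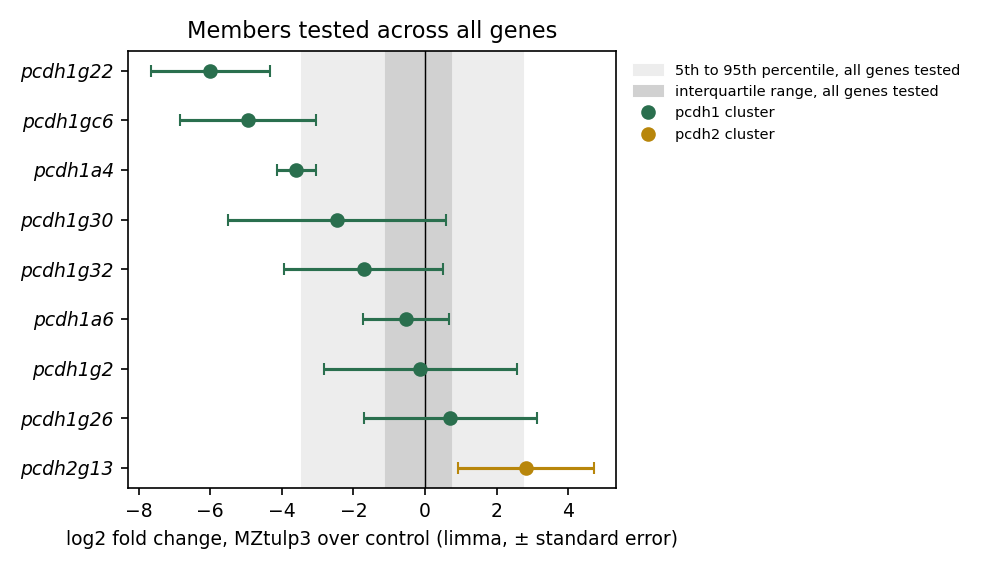
Log2 fold changes of MZtulp3 over control embryos (points) with limma's standard errors (bars) for the 9 members tested, in green for pcdh1 and ochre for pcdh2. The bands span the 25th to 75th percentile (-1.10 to 0.72) and the 5th to 95th percentile (-3.44 to 2.73) of all 14674 genes tested. pcdh1g22, pcdh1gc6 and pcdh1a4 lie below the wider band, and pcdh2g13 just above it.

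As a list, 7 of the 9 members tested were lower and 2 higher in MZ*tulp3* embryos, with a median log2 fold change of -1.71. Over all genes tested, 52.8% were lower and the median was -0.09. The 8 pcdh1 genes had a median of -2.08, with 7 lower and 1 higher. The median over the 9 is the value of *pcdh1g32* and depended on the test and the pseudocount. By DESeq2 it was -0.93 and by edgeR -0.94, and with 0.5 and 10 added in place of 2 it was -2.49 and -0.74. It depended on single libraries too: without MZ*tulp3* replicate 2 it was 0.54, while it was -3.05 with control replicate 2 left out and -2.91 with MZ*tulp3* replicate 1 left out. The median of the pcdh1 genes lay between -3.44 with MZ*tulp3* replicate 1 left out and -1.21 with MZ*tulp3* replicate 2 left out.

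Protocadherins outside the clusters, whose genes stand alone and are not built from shared exons, gave 16 tested genes of 17 symbols. Of these 9 were lower and 7 higher, with a median log2 fold change of -0.37. Summed, the genes of this list had 1624 and 1054 normalized counts in MZ*tulp3* libraries, against 2005 and 2799 in control libraries. In this sum the groups did not overlap, and the log2 ratio was -0.84. Limma called 0 of them at the adjusted threshold, with 2 of them lower before adjustment at the same limit, beside 7.94% of all genes tested. By DESeq2 there were 0 calls. *pcdh19*, which arranges columns of neurons in the zebrafish tectum, had 55.0 and 120 normalized counts in MZ*tulp3* libraries, against 261 and 786 in control libraries. The log2 fold change of *pcdh19* was -2.45 with a standard error of 0.78, and limma's adjusted p was 0.379, with 0.0718 to 0.483 across the alternatives. *pcdh20* (ENSDARG00000101910) stood in the other direction, with 127 and 49.6 in MZ*tulp3* libraries, against 25.0 and 0 in control libraries. Here the log2 fold change was 3.47 with a standard error of 1.92 (limma's adjusted p = 0.497, and 0.463 to 0.850 across the alternatives). Single libraries left out put it between 1.59 and 5.35.

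CTCF and cohesin are known from mice and human cells to bring promoters of the clustered genes together with distant enhancers. Of 20 such genes, with DNA methyltransferases and *smchd1*, 19 were tested, with 14 higher and 5 lower in MZ*tulp3* embryos and a median log2 fold change of 0.27. With scaling to reads outside the mitochondrial genome, these became 10 higher, 9 lower and 0.05. *ctcf* itself had 822 and 937 normalized counts in MZ*tulp3* libraries, against 948 and 415 in control libraries, which overlapped. *smchd1*, which in mice represses clustered protocadherin genes, had 199 and 218 in MZ*tulp3* libraries, against 640 and 303 in control libraries (log2 fold change -1.07, standard error 0.55, adjusted p of 0.468 in limma's test). The largest differences were those of *stag1a*, a cohesin subunit, and *wapla*, which releases cohesin from DNA. *stag1a* had 143 and 184 normalized counts in MZ*tulp3* libraries, against 0 and 1.98 in control libraries. With 3 reads taken for each control library, the level in MZ*tulp3* embryos was 67.2-fold higher. This is not a lower limit, since 3 reads were observed in control replicate 2 and the level there may be higher. The value was 58.8-fold with MZ*tulp3* replicate 2 left out and 75.6-fold with MZ*tulp3* replicate 1 left out. *wapla* had 29.8 and 277 in MZ*tulp3* libraries, against 0 and 1.98 in control libraries, 63.1-fold higher by the same reckoning. This is not a lower limit either. With MZ*tulp3* replicate 2 left out the value was 12.2-fold, and with MZ*tulp3* replicate 1 left out 114-fold. By limma the log2 fold changes of *stag1a* and *wapla* were 5.86 and 5.06. Limma gave an adjusted p of 0.379 for both. DESeq2 called both as higher (adjusted p of 0.0039 and 0.0115), as it did 0.865% of all genes, and over the other alternatives their adjusted p reached 0.523 and 0.611. The paralogues *stag1b* and *waplb* had 619 and 411, and 456 and 445, normalized counts in MZ*tulp3* libraries, against 348 and 487, and 450 and 310, in control libraries.

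Proteins that act with protocadherins inside the cell, such as the Fyn and FAK kinases, the WAVE complex and the proteases that cut protocadherins, gave 21 tested genes of 25 symbols. Of these 11 were lower and 10 higher, with a median log2 fold change of -0.06. Neither limma nor DESeq2 called any (0 each), and before adjustment limma had 2 lower and 3 higher, beside 7.94% lower and 4.82% higher over all genes tested. The largest differences were in *ret*, a receptor found with clustered protocadherins in mice (194 and 0 normalized counts in MZ*tulp3* libraries, against 272 and 300 in control libraries), and in *fynb* (45.8 and 0 in MZ*tulp3* libraries, against 97.2 and 108 in control libraries). Without MZ*tulp3* replicate 2, which had no reads of either, their log2 fold changes of -3.86 and -3.42 were -0.56 and -1.13.

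The clustered genes are used chiefly by neurons, and in RNA of whole embryos fewer neurons and less RNA per neuron cannot be told apart. Of 18 neuron markers 17 were found and tested, with 0 of them at 0 reads. They summed to 16063 and 10027 normalized counts in MZ*tulp3* libraries, against 20733 and 29069 in control libraries, 1.91-fold lower in MZ*tulp3* embryos. Of the 17 genes 15 were lower and 2 higher, with a median log2 fold change of -1.20. Limma called 0 and had 9 lower at an unadjusted p under 0.05 (7.94% over all genes tested). DESeq2 called 3 as lower, *snap25b*, *stmn2b* and *syt1a* (1.41% over all genes). *snap25b*, a protein of synaptic vesicle fusion, had 361 and 85.0 normalized counts in MZ*tulp3* libraries, against 1102 and 1320 in control libraries. Of the 2 higher markers, *elavl3*, an early marker of all neurons, had 1301 and 1842 in MZ*tulp3* libraries, against 1120 and 1526 in control libraries, which overlapped. The other, *map1b*, had 211 and 174 in MZ*tulp3* libraries, against 61.6 and 100 in control libraries. There both MZ*tulp3* libraries lay above both control libraries, as in 20% of all genes tested. Per 1000 normalized counts of neuron markers, the pcdh1 cluster had 54.2 and 31.5 in MZ*tulp3* libraries, against 121 and 117 in control libraries. This ratio depends on which markers are pooled, and their log2 fold changes ran from -2.77 to 1.26. Taken against each marker alone, the ratio was lower in each MZ*tulp3* library than in either control library for 15 of 17 markers, and overlapped for *snap25b* and *nefma*. These ratios all have the pcdh1 sum as numerator, which was itself lower in both MZ*tulp3* libraries, so they are not separate observations. For markers that differ less than that sum, the order was largely set beforehand. The count stands without the same count over all genes. The part of neuron number in the result was not tested.

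Markers of other cell types differed in other ways. The median log2 fold change of neural progenitor and glia markers (9 tested of 10) was 0.24, with 5 higher and 4 lower, and 0.02 with scaling to reads outside the mitochondrial genome. Among them *slc1a3b*, a glutamate transporter of glia, had 302 and 227 normalized counts in MZ*tulp3* libraries, against 1039 and 1560 in control libraries. DESeq2 called *slc1a3b* as lower, as it did 1.41% of all genes. Muscle markers had a median of 0.54, and 0.32 with scaling to reads outside the mitochondrial genome. Of the 6 genes 5 were higher, and in each of these 5 the groups overlapped. *myhz1.1*, a myosin heavy chain, was called by DESeq2 as lower, beside the same 1.41%. For all 5 epidermis markers, keratins among them, both MZ*tulp3* libraries lay above both control libraries. This order was found in 20% of all genes tested. The 5 markers summed to 311016 and 425745 normalized counts in MZ*tulp3* libraries, against 176785 and 128556 in control libraries. At an unadjusted p under 0.05 limma had 4 of these 5 as higher, against 4.82% of all genes tested, and called 0 at the adjusted threshold. DESeq2 called *cyt1*, *krt17*, *krt4* and *krt5* as higher, and 0.865% of all genes. The 5 yolk and liver markers summed to 11335 and 13134 in MZ*tulp3* libraries, against 5138 and 5151 in control libraries, and DESeq2 called *apoa1a*, *apoa2* and *fetub* as higher, beside the same 0.865%. The part of such shifts in tissue makeup in the pcdh1 result was not tested.

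**Figure D5:**
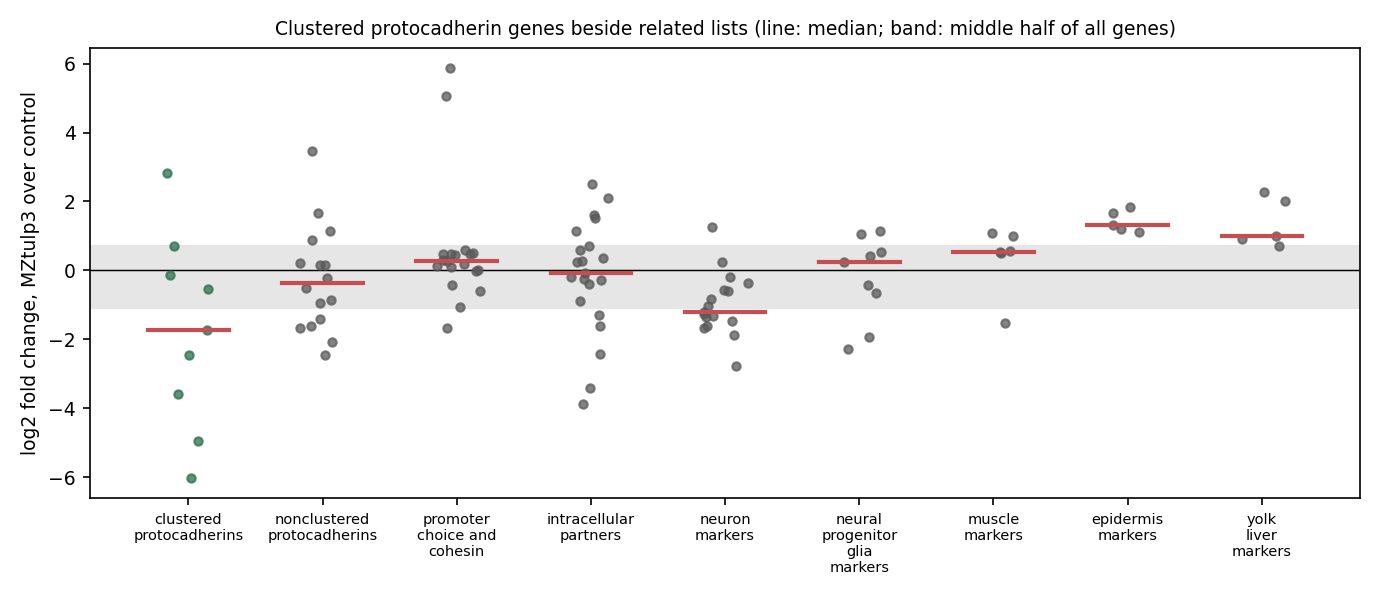
Log2 fold changes of MZtulp3 over control embryos for the 9 clustered protocadherin genes tested (green) and for the tested genes of the other lists (grey), with the median of each list as a red line and the 25th to 75th percentile of all genes tested as a band (-1.10 to 0.72). The medians of the clustered protocadherins (-1.71) and of the neuron markers (-1.20) lie below the band, those of the epidermis markers (1.30) and of the yolk and liver markers (1.00) above it.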

How the data were processed

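RNA of whole embryos at 2 dpf was sequenced in 2 MZ*tulp3* and 2 control libraries. Per the labels and methods, the authors used Trim Galore, STAR and RSEM through nf-core/rnaseq on GRCz10, and DESeq2. The signal that the authors deposited per library is a count divided by a size factor, since 100% of values were whole multiples of 1 constant per library (within 1e-06 of a whole read), and whole reads were recovered from it. Columns of regularized logarithms and of the authors' fold changes and p-values were not used.

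Limma 3.58.1 (R 4.3.3), moderated with a trend, was fitted to log2(normalized count + 2) of the 14674 genes with at least 10 in 2 libraries or more, two-sided, at an adjusted p of 0.05 (Benjamini-Hochberg). The scripts were tested on simulated data. DESeq2 1.42.0 and edgeR 4.0.16 on recovered reads, other filters, pseudocounts of 0.5 and 10, TMM scaling, scaling to reads outside the mitochondrial genome, the replicate number as a term and each library left out were alternatives. With 2 libraries against 2, a permutation of 1 value cannot go below a p of 0.333. Members, lists and tests were chosen with earlier results of these data known. Named were the members of each cluster with the highest mean normalized counts (8) or the largest difference (6). Added to these were members past a threshold or at an unadjusted limma p under 0.05. In other lists, genes that limma or DESeq2 called were named, or the 2 with the largest difference at a mean of at least 50. Beyond that rule, *ctcf*, *smchd1*, *stag1b*, *waplb*, *elavl3*, *map1b*, *nefma*, *pcdh1g13*, *pcdh2ab11* and *pcdh2ac* were named after their values were seen. Of the 32 symbols, 27 were matched in RefSeq's GRCz12tu annotation. Sequences of the genes were not used here.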

Additional observations from a re-analysis of the deposited data

How the results depend on the processing

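With 2 libraries per group, no member passed limma's adjusted threshold, and the count of 0 also held by edgeR, without a filter, with either pseudocount, under both other scalings and for members with a mean of at least 50. With each library left out it was also 0 (0 to 0), but those fits take the spread from the other group, assuming that the lone library varies alike, and called 0 of all 14674 genes, so they say nothing about stability. DESeq2 called 3 members. Limma called 1, *pcdh1a4*, when 10 normalized counts were required in every library (adjusted p = 0.00747), where 2 members were left, and 1, the same gene, with the replicate number as a block (adjusted p = 0.000105). Same-numbered libraries did not deviate together across genes as a whole (r = -0.003). This cannot exclude a factor that they share and that acts on some genes, and the labels give no pairing. Over all genes, calls numbered 0 by limma (1873 at an unadjusted p under 0.05) and 0 by edgeR (1427 unadjusted), against 326 by DESeq2, 112 by limma with 10 in every library and 329 by limma with the block. The block changed no other call of a member.

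The median log2 fold change of the members was -1.71 and lay between -3.05 and 0.54 with 1 library left out, and that of pcdh1 (-2.08) between -3.44 and -1.21. By DESeq2 and edgeR the median of the members was -0.93 and -0.94, and with pseudocounts of 0.5 and 10 it was -2.49 and -0.74. The pcdh2 value of 2.82 is 1 gene, between 1.30 and 4.34 with 1 library left out, and without a filter it was -1.80 over 4 genes, 3 of them read in 1 control library each. The difference of the cluster medians, pcdh1 minus pcdh2, was -4.90, between -7.62 and -3.03 with 1 library left out, and -0.63 without a filter. The log2 ratio of summed pcdh1 counts was -2.32 (-3.22 to -1.76 with 1 library left out), and that of pcdh2 0.06 (-1.35 to 0.76), which was -0.0666 when scaled to reads outside the mitochondrial genome and, chosen after seeing the data, 0.83 with *pcdh2ac* and *pcdh2ab11* added. That scaling put the median of all genes at -0.29 instead of -0.09 and the pcdh1 ratio at -2.59.

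Of single genes, *pcdh1g32* changed sign to 0.0732 by DESeq2 and 0.0734 by edgeR. With 1 library left out, log2 fold changes ran from -2.14 to 1.06 for *pcdh1a6*, -6.86 to 1.96 for *pcdh1g30*, -3.05 to 2.78 for *pcdh1g2*, -4.56 to 1.14 for *pcdh1g32* and -2.06 to 3.45 for *pcdh1g26*. *pcdh1a4*, *pcdh1g22*, *pcdh1gc6* and *pcdh2g13* kept their direction under every alternative that gave a value for them. No pcdh2 value could be had with 10 in every library or a mean of at least 50, where no pcdh2 gene was left. The pcdh2 sums, of 16 to 67 reads per library, are limited by counting.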
